A study of Mus musculus with 12 samples.

Results

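The transcripts described here are those of 10 genes of the circadian clock, Arntl, Per1, Per2, Per3, Ciart, Bhlhe40, Nr1d1, Nr1d2, Dbp and Tef. They were taken by name, as every array probe whose current or older symbol is 1 of these 10, and make up 10 of the 16593 genes named on the array. The array carries 17 probes for them, of which 14 passed the detection filter, with at least 1 for each gene. The genes were chosen by name with measured values of these same tumours known, the log2 differences between KHR-NICD and KHR tumours among them. Those differences are therefore given as a description, without a test.

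The study profiled RNA from 12 mouse oral tumours on single-colour bead arrays, 6 tumours labelled KHR-NICD and 6 labelled KHR. NICD is the usual abbreviation of the Notch intracellular domain, the fragment that a Notch receptor releases to act on genes in the nucleus, and the labels do not spell out KHR. All tumours came from F1 crosses of FVB with C57BL/6, grew for 21 days and went into Trizol when isolated. Whether the biological replicates of the labels are separate animals is not said, so a p-value here covers only the spread among these 12 samples. The labels give no promoter or cell type for NICD, no age of the animals and no hour of collection.

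The clock of a mammalian cell is a loop in which the proteins ARNTL (also called BMAL1) and CLOCK bind E-boxes in DNA and switch on the Per, Cry, Nr1d1, Nr1d2, Dbp and Tef genes. The PER and CRY proteins then shut ARNTL and CLOCK off, and NR1D1 and NR1D2 (REV-ERB alpha and beta) repress Arntl itself, so that over a day Arntl and its targets peak at opposite times. DBP and TEF carry the rhythm to other genes through D-boxes, and the clock runs in skin and other epithelia as well as in the brain.

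RefSeq promoter windows of the GRCm38.p6 build, from 250 bases before to 50 bases after a start site, were listed for 8 of the 10 genes in 11 windows. Per2 and Bhlhe40 were not among them. Motifs were searched on both strands in windows of 300 bases. The E-box CACGTG lay in 4 of the 11 windows (Ciart, Per1 and both of Tef), against 7.15% of all 32851 windows. The D-box TTANGTAA lay in 1 of 11, against 2.32%. For the REV-ERB and ROR element only the short, loose pattern TNGGTCA was searched, where N is any base, so a match need not be such an element. It lay in 4 of 11 (both of Arntl, Per3 and 1 of Tef), against 10.96%. The 2 Arntl windows overlap and share 2 of these matches. The E-prime box CACGTT lay in 1 of 11, that of Nr1d1, against 4.69%, and the cAMP response element TGACGTCA in 0 of 11, against 1.79%. The 5 windows below, 1 for each of 5 genes, are shown to let a reader see such matches, with each match in capitals, read 5′ to 3′ on the strand of the gene. Ciart, on the minus strand at chr3:95882179-95882478, has 3 E-boxes, 116, 58 and 44 bases before the start site. Per1, on the plus strand at chr11:69098699-69098998, has 1 E-box 166 bases before the start site. Tef, on the plus strand at chr15:81802423-81802722, has 1 E-box 127 bases before it. The other Tef window, at chr15:81811164-81811463 and not shown, has 1 E-box 138 bases and 1 match of TNGGTCA 219 bases before its start site. Per3, on the minus strand at chr4:151044616-151044915, has 2 D-boxes, 205 and 158 bases before the start site, and 1 match of TNGGTCA 118 bases before it. Arntl, on the plus strand at chr7:113207261-113207560, has 2 matches of TNGGTCA before the start site, TTGGTCA and TCGGTCA, and 1 after it, TAGGTCA.
Ciart: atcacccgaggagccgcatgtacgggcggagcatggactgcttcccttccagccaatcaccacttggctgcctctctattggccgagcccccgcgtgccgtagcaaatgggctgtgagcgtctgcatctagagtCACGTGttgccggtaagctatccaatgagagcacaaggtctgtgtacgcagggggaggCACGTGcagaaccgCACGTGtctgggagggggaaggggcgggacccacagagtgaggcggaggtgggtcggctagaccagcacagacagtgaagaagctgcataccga
Per1: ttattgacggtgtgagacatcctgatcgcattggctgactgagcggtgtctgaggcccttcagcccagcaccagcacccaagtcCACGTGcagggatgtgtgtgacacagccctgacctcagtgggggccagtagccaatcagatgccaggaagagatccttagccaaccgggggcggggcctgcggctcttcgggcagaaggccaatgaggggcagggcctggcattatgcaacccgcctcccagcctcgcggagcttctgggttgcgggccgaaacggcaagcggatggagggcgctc
Tef: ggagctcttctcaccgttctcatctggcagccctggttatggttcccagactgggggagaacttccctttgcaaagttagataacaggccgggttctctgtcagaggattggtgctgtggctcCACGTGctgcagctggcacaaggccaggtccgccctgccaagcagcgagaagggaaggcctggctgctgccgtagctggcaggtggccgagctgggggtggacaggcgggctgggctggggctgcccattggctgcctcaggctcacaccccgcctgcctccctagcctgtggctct
Per3: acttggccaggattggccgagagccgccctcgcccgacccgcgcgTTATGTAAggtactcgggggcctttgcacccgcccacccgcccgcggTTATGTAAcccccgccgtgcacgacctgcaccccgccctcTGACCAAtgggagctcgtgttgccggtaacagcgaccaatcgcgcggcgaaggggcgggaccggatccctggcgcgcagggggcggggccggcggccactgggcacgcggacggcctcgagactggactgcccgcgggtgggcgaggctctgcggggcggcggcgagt
Arntl: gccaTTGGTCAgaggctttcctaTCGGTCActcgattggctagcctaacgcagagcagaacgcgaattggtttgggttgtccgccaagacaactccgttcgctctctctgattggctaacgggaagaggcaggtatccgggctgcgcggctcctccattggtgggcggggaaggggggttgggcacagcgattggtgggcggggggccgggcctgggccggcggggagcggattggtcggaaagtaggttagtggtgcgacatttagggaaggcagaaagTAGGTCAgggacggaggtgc
The windows of Dbp and Nr1d2 hold none of these letters. A match is a description of these letters and says nothing of binding in the tumours.

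All values below are log2 intensities after background correction and quantile normalization, with 43.6% to 48.1% of probes detected per array. A difference is the mean of KHR-NICD tumours minus that of KHR tumours from a limma fit on all 8420 genes tested, so that +1 is a doubling of intensity. The keratinocyte markers expected of an oral tumour were all detected, with a mean log2 level of 12.59 to 12.82 in KHR-NICD tumours and 12.69 to 12.94 in KHR tumours over 10 genes. Eif2s3y, a gene of the Y chromosome, was detected in KHR-NICD tumours 1 and 4 and in KHR tumours 4, 5 and 6, at 8.18 or above, and was at 4.92 or below in the other 7. That split runs across the tumour types and is followed below, since several clock transcripts moved with it. In bulk tumours, fewer cells of a type and less RNA per cell cannot be told apart.

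Between the tumour types, the transcripts with the largest differences were 2 repressors of the clock, Ciart and Per1, and the output factor Dbp, all with higher means in KHR-NICD tumours. Arntl, Per2, Per3, Nr1d1 and Nr1d2 had differences smaller than their standard errors. Of the 10 genes 7 had a positive difference, where 51.1% of all genes did, and their median difference was +0.19, against 0.005 over all genes. The groups overlapped for all 10, where 0.713% of all genes lay wholly higher and 0.855% wholly lower in KHR-NICD tumours. The limma test called 0 of the 10, against a background of 0.202% of all genes tested (17 of 8420), and nothing is read from this count since the genes were chosen with these results known.

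Arntl, the activator, was detected on all 12 arrays. It ran from 5.59 to 6.47 with a median of 5.82 in KHR-NICD tumours, and from 5.79 to 6.12 with a median of 6.06 in KHR tumours. The difference was -0.10 with a standard error of 0.13 and a 95% interval of -0.38 to 0.19. KHR-NICD tumour 6 stood highest of all and the other tumours mingled.

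Ciart, a repressor of CLOCK and ARNTL that was long listed as Gm129, showed the largest difference by the brightest probe of each gene, though the second probe of Per1 gave more. Its brighter probe ran from 7.29 to 8.32 with a median of 7.72 in KHR-NICD tumours, and from 6.52 to 7.58 with a median of 6.76 in KHR tumours. KHR tumour 1, at 7.58, lay among the KHR-NICD tumours, and the other 5 KHR tumours lay at 7.004 or lower, below all 6 KHR-NICD tumours. The means were 7.74 ± 0.36 in KHR-NICD and 6.88 ± 0.38 in KHR tumours (SD, n = 6 each), which differ by +0.86 (standard error 0.20, 95% interval 0.44 to 1.28), or 1.82-fold. The other probe of Ciart gave +0.87 with a standard error of 0.18. It ran from 7.03 to 8.33 in KHR-NICD tumours and from 6.46 to 7.13 in KHR tumours, where KHR tumour 1 again was the single one to reach into the other group.

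Per1, whose protein blocks CLOCK and ARNTL together with the CRY proteins, ran from 9.33 to 10.29 with a median of 9.58 in KHR-NICD tumours. In KHR tumours it ran from 8.57 to 9.60 with a median of 8.96. KHR tumour 6, at 9.60, stood above 3 of the KHR-NICD tumours, while the other 5 KHR tumours stood below all of them. The means were 9.68 ± 0.39 in KHR-NICD and 9.004 ± 0.38 in KHR tumours (SD, n = 6 each). The difference was +0.68 with a standard error of 0.20 and a 95% interval of 0.25 to 1.11, or 1.60-fold. The second probe of Per1 gave a larger value, +0.98 with a standard error of 0.21, or 1.98-fold. There, KHR-NICD tumours ran from 7.92 to 8.96 and KHR tumours from 7.05 to 8.05, and KHR tumour 6 was again the single one to overlap.

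Per2, a close relative of Per1 with the same role, had a smaller difference. It ran from 8.85 to 10.31 with a median of 9.15 in KHR-NICD tumours, and from 8.74 to 9.83 with a median of 9.37 in KHR tumours. KHR-NICD tumours 3 and 5, at 10.25 and 10.31, stood above all others, and the remaining 4 lay at 9.18 or lower. KHR tumours 4, 5 and 6 lay at 9.60 or higher and KHR tumours 1, 2 and 3 at 9.13 or lower. The difference was +0.15 with a standard error of 0.29, and +0.07 with a standard error of 0.26 for the second detected probe. A further Per2 probe was detected on 0 arrays.

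Per3, the remaining Per gene, was dim and was detected on 5 arrays of each tumour type. It ran from 5.13 to 6.30 in KHR-NICD tumours and from 5.26 to 6.55 in KHR tumours, with a difference of -0.09 and a standard error of 0.24. Bhlhe40 (also called DEC1), a repressor that competes for E-boxes, ran from 10.48 to 11.04 in KHR-NICD tumours and from 10.15 to 10.75 in KHR tumours. Its difference was +0.24 with a standard error of 0.14 and a 95% interval of -0.05 to 0.53. Both genes overlapped between the groups.

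The REV-ERB nuclear receptors had differences within their standard errors at their brighter probes. Nr1d1 ran from 7.77 to 8.42 in KHR-NICD tumours and from 7.51 to 8.64 in KHR tumours, with differences of +0.10 with a standard error of 0.18 and, for its second probe, +0.22 with a standard error of 0.19. Nr1d2 ran from 6.37 to 7.24 in KHR-NICD tumours and from 6.60 to 7.30 in KHR tumours. The 95% interval of its difference was -0.44 to 0.33. A second Nr1d2 probe was detected on 0 arrays.

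Dbp, which activates genes through D-boxes, was at 10.42, 10.85, 11.08, 10.02, 11.56 and 10.86 in KHR-NICD tumours 1 to 6. In KHR tumours 1 to 6 it was at 10.80, 10.58, 10.70, 9.62, 9.88 and 9.68. The KHR tumours thus formed a bright set, numbers 1 to 3, within the KHR-NICD range, and a dim set, numbers 4 to 6, below it. The difference was +0.59 with a standard error of 0.28 and a 95% interval of -0.01 to 1.18. Tef, a factor of the same bZIP family, ran from 9.22 to 9.79 in KHR-NICD tumours and from 8.85 to 9.55 in KHR tumours, with a difference of +0.26 and a standard error of 0.14. Its second probe was detected on 0 arrays. Both genes overlapped between the groups.

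**Figure D1:**
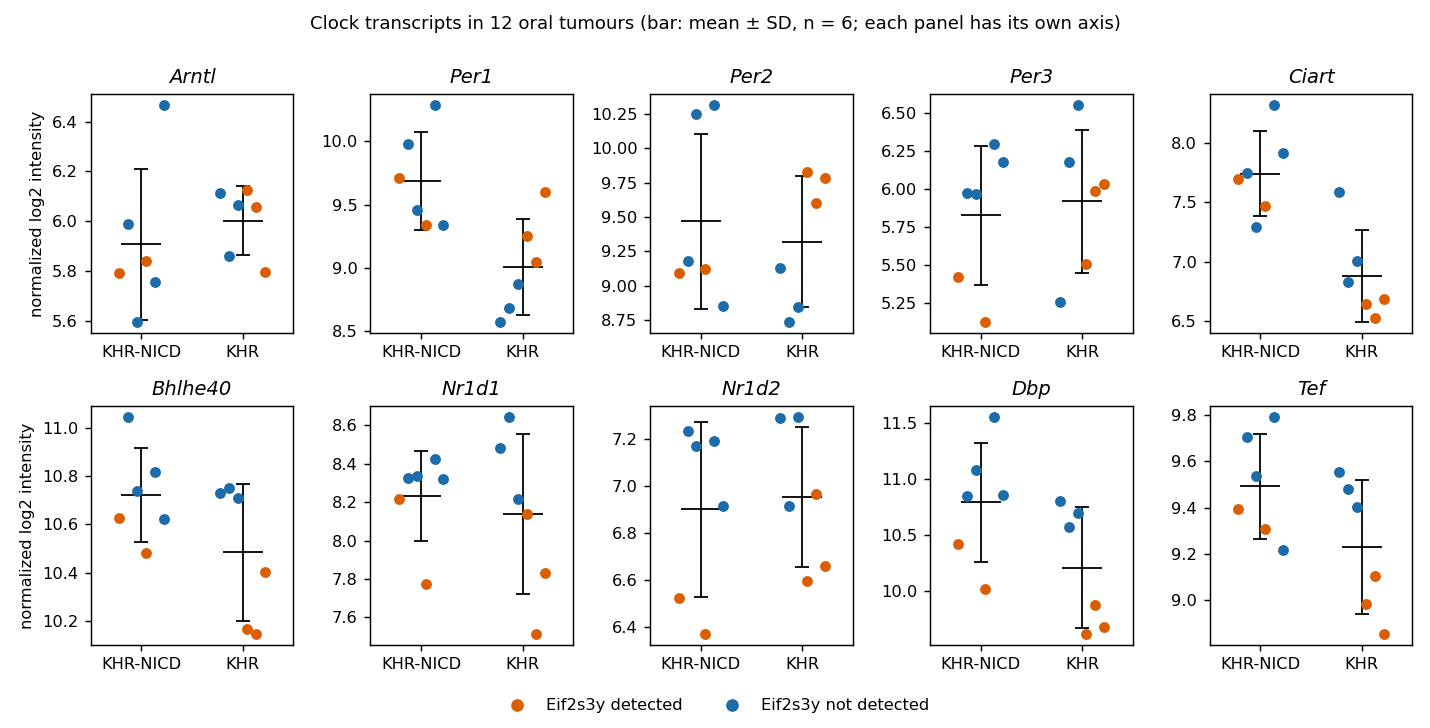
Normalized log2 intensity of each clock transcript in the 6 KHR-NICD tumours (left in each panel) and the 6 KHR tumours (right), with the mean and SD as bars and the colour giving detection of Eif2s3y. Ciart and Per1 stand higher in most KHR-NICD tumours, and the tumours with Eif2s3y lie low for Dbp, Nr1d2 and Bhlhe40 in both types.

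**Figure D2:**
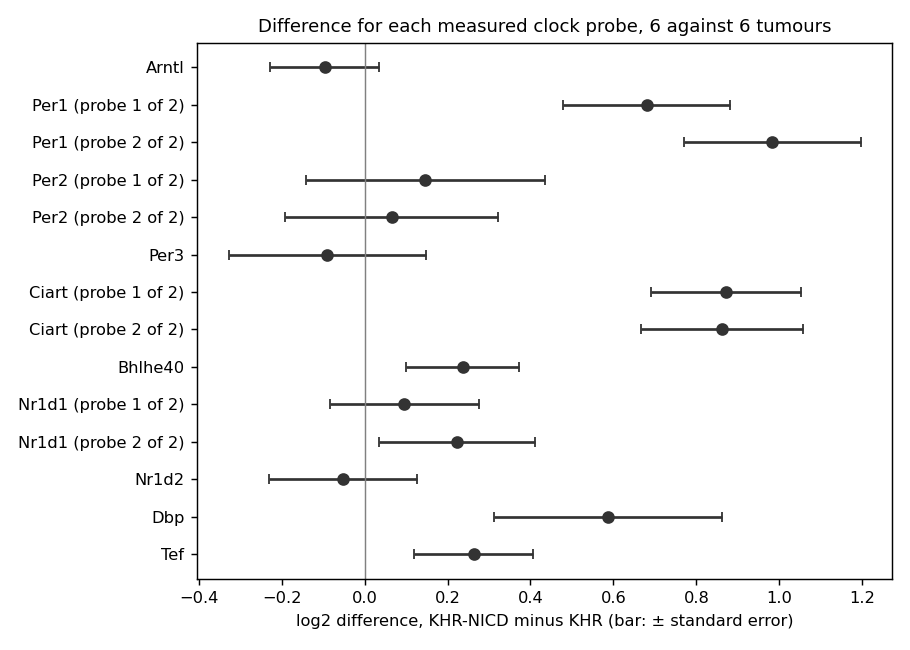
The log2 difference of KHR-NICD minus KHR tumours for each of the 14 clock probes that passed the detection filter, with standard error bars and probes of a gene in order of their identifiers. Both probes of Ciart (+0.87 and +0.86) and of Per1 (+0.68 and +0.98) lie to the right of the others.

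Beside the higher Ciart and Per1 means stood 1 marker of another tissue, which did not pass the test. Aqp5, a water channel of salivary glands and some other epithelia, ran from 10.86 to 11.41 in KHR-NICD tumours and from 9.59 to 10.74 in KHR tumours, with no overlap (difference +0.85, standard error 0.18, limma adjusted p = 0.0737). Groups that did not overlap in this direction made up 0.713% of all genes. Of the 5 salivary gland genes listed the other 4, Amy1, Smr3a, Prol1 and Bpifa2, were detected on 0 arrays. The part of Aqp5-expressing cells in the Ciart and Per1 values was not tested.

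The split by Eif2s3y was found in these data and is not a group of the study. It was followed because clock transcripts moved with it. The p-values and calls of the 10 along this split, also with tumours left out, are therefore a description and no independent test. Some of the clock transcripts differed along it. In a limma fit with tumour type and Eif2s3y together, 5 of the 10 transcripts were lower in tumours with Eif2s3y and 0 were higher, namely Dbp, Nr1d2, Nr1d1, Bhlhe40 and Tef. Over all genes tested the same fit called 18.6%, with 10.1% lower and 8.47% higher. As background, all 5 are known targets of ARNTL and CLOCK, but so are the Per genes, which did not pass. Arntl, Per1 and Per2 had values of -0.07, +0.20 and +0.19 that did not pass (limma adjusted p = 0.742, 0.534 and 0.698), and neither did Per3 at -0.47 or Ciart at -0.39 (limma adjusted p = 0.139 and 0.137).

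Dbp had the largest of these differences. It ran from 9.62 to 10.42 in the 5 tumours with Eif2s3y, against 10.58 to 11.56 in the other 7, with no overlap. The fit gave -0.92 ± 0.13 (standard error, limma adjusted p = 0.00118). Nr1d2 ran from 6.37 to 6.97 in tumours with Eif2s3y and from 6.92 to 7.30 in those without, and the fit gave -0.54 ± 0.11 (standard error, limma adjusted p = 0.00526). For Nr1d1 the ranges were 7.51 to 8.22 with and 8.22 to 8.64 without, a difference of -0.50 (limma adjusted p = 0.0168). Bhlhe40 ran from 10.15 to 10.63 with Eif2s3y and from 10.62 to 11.04 without, a difference of -0.38 (limma adjusted p = 0.0147). Tef ran from 8.85 to 9.39 with Eif2s3y and from 9.22 to 9.79 without, a difference of -0.37 (limma adjusted p = 0.0334). For Nr1d2, Nr1d1, Bhlhe40 and Tef the 2 sets met or overlapped at their edges.

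When each tumour was left out in turn, Dbp, Nr1d2 and Bhlhe40 passed all 12 times. Nr1d1 was lost without KHR-NICD tumour 4, and Tef was lost without KHR-NICD tumour 4 or 5 or without any 1 of the 6 KHR tumours. Ciart was gained without KHR-NICD tumour 3, and Per3 without KHR tumour 1. Markers of other cell types also differed along Eif2s3y by their summed intensity, in which the brightest markers weigh most. That of 7 fibroblast markers, all tested, was 2095 to 3500 in tumours with Eif2s3y and 3540 to 5473 in those without. That of 3 of 6 macrophage markers was 722 to 865 with it and 415 to 685 without it. These sums did not overlap, but the mean log2 levels did in both lists. They were 7.17 to 8.17 with and 7.49 to 8.25 without for fibroblasts, and 7.31 to 7.79 with and 6.96 to 7.62 without for macrophages. The part of fibroblasts and macrophages in the clock values was not tested. Of 12 skeletal muscle markers 10 were tested, and their mean log2 level per tumour was 6.44 to 7.78 in tumours with Eif2s3y and 7.25 to 9.59 in those without. The summed muscle intensities were 1804.5 to 4603 with it and 3172 to 16073 without it, which overlap, and 0 of the muscle, fibroblast and macrophage genes on the array went undetected. With the muscle level in the fit as well, 0 of the 10 clock transcripts and 2 of all genes were called lower or higher with Eif2s3y. Dbp was then at -0.64 (limma adjusted p = 0.160), Nr1d2 at -0.55 and Bhlhe40 at -0.42, against -0.92, -0.54 and -0.38 without the muscle level. The muscle level itself differed along Eif2s3y, with a mean of 7.06 with it and 8.61 without it. The 2 terms are thus hard to tell apart in 12 tumours, and the part of muscle in the clock values was not tested. In KHR the tumours with Eif2s3y are also those numbered 4 to 6, so there the number and Eif2s3y cannot be told apart.

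Differences between the tumour types were also taken within the sets. Ciart differed by +0.97 among the 5 tumours with Eif2s3y and by +0.68 among the 7 without it. Dbp differed by +0.49 with and +0.39 without. Per1 differed by +0.22 with and by +1.06 without, and Per2 by -0.63 with and by +0.74 without. The interaction of tumour type and Eif2s3y did not pass for any of the 10, with limma adjusted p = 0.236 for Per1 and 0.177 for Per2, against a background of 0.285% of all genes called.

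Across the tumours, 6 of the 10 transcripts went up and down together. With the mean of each tumour type taken out, all 15 pairs among Dbp, Tef, Nr1d1, Nr1d2, Bhlhe40 and Ciart had a positive Pearson r over 12 tumours, from 0.50 to 0.88 with a median of 0.71. The Spearman rho of these pairs ran from 0.49 to 0.80. The highest r was that of Nr1d2 with Dbp, 0.88, followed by Dbp with Tef, 0.84, and Bhlhe40 with Tef, 0.82. The 6 genes were grouped after their values were seen, so these figures describe them and test nothing. The values were smaller once the Eif2s3y split was removed. With Eif2s3y taken out too, 13 of the 15 pairs were positive with a median of 0.26 and a range of -0.55 to 0.59. Dbp with Tef then kept 0.59 and Ciart with Dbp 0.53, while Nr1d1 with Nr1d2 stood at -0.55. Within the 7 tumours without Eif2s3y, 12 of 15 were positive with a median of 0.30.

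Per1 and Per2 had a positive correlation with each other (r = 0.61, rho = 0.55), which was 0.33 without the 2 tumours farthest from the median of Per1 and 0.35 within the 7 tumours without Eif2s3y. The 12 pairs of Per1 or Per2 with the 6 genes had a median r of -0.12 over all tumours. Among the KHR-NICD tumours alone all 12 were positive, with a median of 0.60. Among the KHR tumours alone 0 of 12 were positive, with a median of -0.75. That difference was not tested. For the pair of Per2 and Dbp, KHR tumours 4 to 6 were high in Per2, at 9.60 to 9.83, and low in Dbp, at 9.62 to 9.88. KHR tumours 1 to 3 were at 8.74 to 9.13 in Per2 and at 10.58 to 10.80 in Dbp. The part of these sets of 3 in the values of the 12 pairs was not tested. With Eif2s3y taken out, the median of these 12 pairs was 0.14. Within the 7 tumours without Eif2s3y 11 of the 12 were positive with a median of 0.47, the highest being Per2 with Dbp at 0.82 and Per1 with Tef at 0.78, so the value depends on which tumours are taken. Arntl, which peaks opposite to its targets in a daily cycle, had r from -0.50 to 0.30 with the other 9, lowest with Per2. Without the 2 tumours farthest from the median of Arntl, that value was -0.14.

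**Figure D3:**
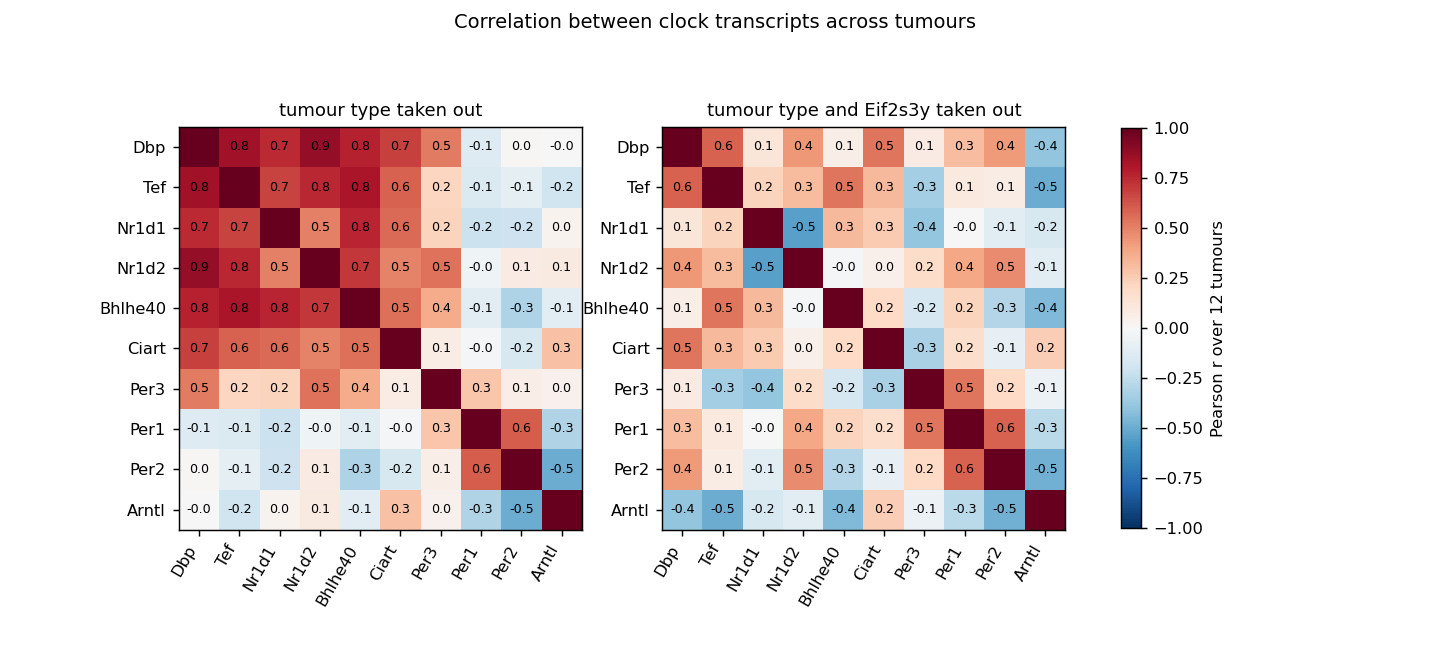
Pearson correlation of each pair of clock transcripts over 12 tumours, with the mean of each tumour type taken out (left) and with Eif2s3y taken out as well (right), on a colour scale from -1 to 1. The block of positive values among 6 genes at the upper left (median 0.71) fades in the right panel (median 0.26), and the value of Per1 with Per2 is 0.61 on the left and 0.59 on the right.

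**Figure D4:**
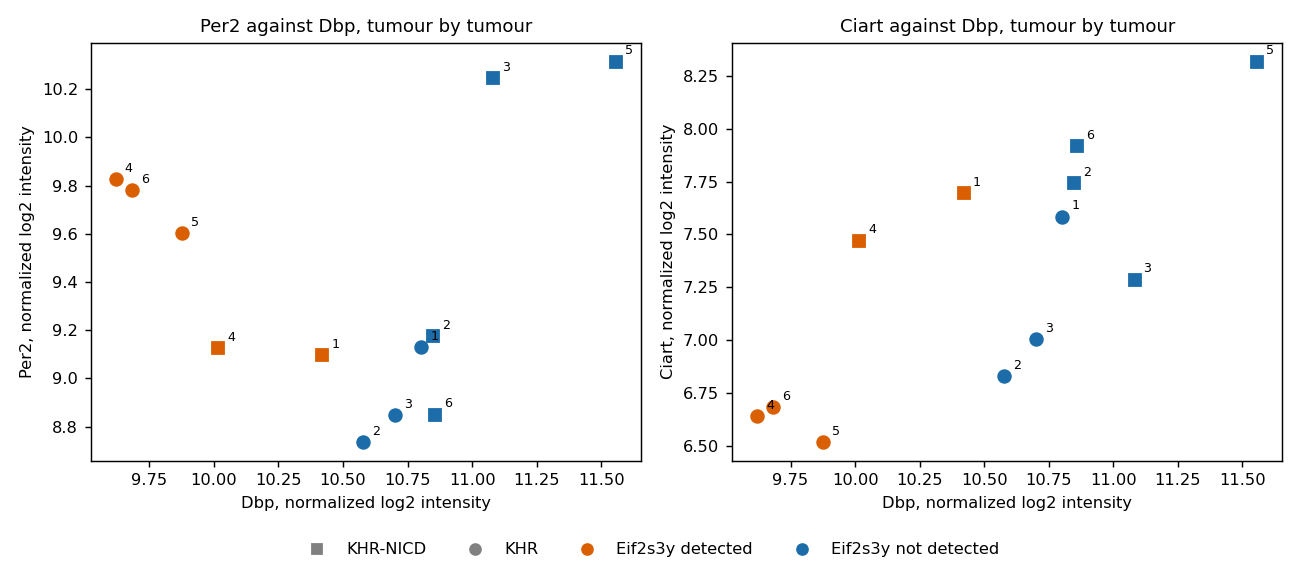
Per2 (left) and Ciart (right) against Dbp, tumour by tumour, in normalized log2 intensity, with squares for KHR-NICD tumours, circles for KHR tumours, the replicate number beside each point and the colour giving Eif2s3y. KHR tumours 4 to 6 combine high Per2 (9.60 to 9.83) with low Dbp (9.62 to 9.88), and KHR-NICD tumours 3 and 5 are high in both.

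The other genes of the clock were read from lists chosen with earlier results of these tumours known. Of 31 core clock genes and regulators, 27 were on the array and 16 were tested, and 0 rose, 0 fell and 16 did not pass in KHR-NICD tumours, with 7 positive and 9 negative differences and a median of -0.01. Clock, the partner of Arntl, stood at -0.01 with a standard error of 0.09, and Cry2, which represses with the PER proteins, at +0.16 with a standard error of 0.10. Nfil3, which represses the D-boxes that DBP activates, stood at -0.38 (limma adjusted p = 0.299). Rora, which drives Arntl through the element that REV-ERB blocks, stood at +0.43 (limma adjusted p = 0.380). Csnk1e, a casein kinase that marks PER proteins for degradation, stood at +0.27 by its brighter probe and at +0.087 by the mean of its probes, Ddb1, a ubiquitin ligase adaptor, at -0.30, and Tipin, the partner of Timeless, at +0.21. Npas2, Arntl2, Cry1, Hlf and Bhlhe41 were detected on 0 arrays, so for Cry1, the other cryptochrome, and Hlf, the other PAR bZIP factor, only the lack of detection can be given.

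Of 18 clock output genes, 9 were tested, and 0 rose and 0 fell, with a median of +0.05. Nampt, which remakes NAD, stood at +0.49 ± 0.21 (standard error, limma adjusted p = 0.330) and was detected in 5 KHR-NICD and 3 KHR tumours. With Eif2s3y in the fit, Noct (nocturnin), a phosphatase of NADPH with a strong daily rhythm in liver, fell by 0.36, and Alas1, the first enzyme of haem synthesis, fell by 0.41 (limma adjusted p = 0.0358 and 0.0493), where 2.57% of all genes were called. These genes and the next were named after their values were seen. By the Eif2s3y term 4 of the 9 output genes were lower in tumours with Eif2s3y, where 10.1% of all genes were. Noct stood at -0.50 and Alas1 at -0.51 (limma adjusted p = 0.00192 and 0.00562). Ppp1r3c, which tethers a phosphatase to glycogen, stood at -1.72 (limma adjusted p = 0.00312). Elovl3, a fatty acid elongase of skin and brown fat, had values of 4.60 to 4.80 with Eif2s3y and 5.51 to 8.29 without it, and was detected in 7 tumours, so the size of its difference was not measured (limma adjusted p = 0.00465). Of the 16 core genes 2 were higher with Eif2s3y, Gsk3b at +0.68 and Tipin at +0.27 (limma adjusted p = 0.00717 and 0.0159), where 8.47% of all genes were, and 0 were lower.

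**Figure D5:**
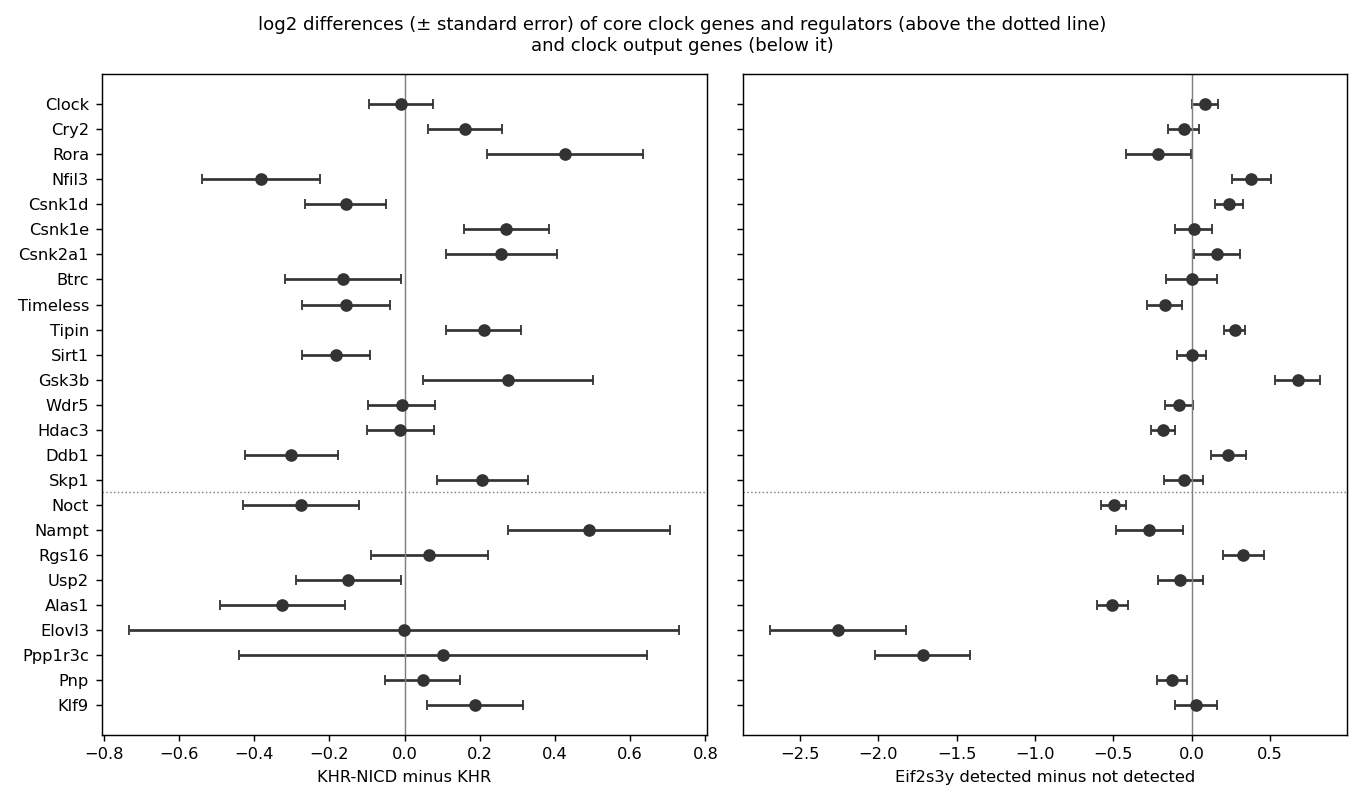
The log2 difference with its standard error for the 16 tested core clock genes and regulators (above the dotted line) and the 9 tested output genes (below it), for KHR-NICD minus KHR on the left and for tumours with minus without Eif2s3y on the right. On the left none passed the test, and on the right Ppp1r3c (-1.72), Alas1 (-0.51) and Noct (-0.50) lie low, Elovl3 is plotted against values at background and so has no measured size, and Gsk3b (+0.68) lies high.

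Correlations between the 10 transcripts and those 25 other clock genes were tested by permutation within tumour type. Of 250 pairs 9 passed by Pearson r after Benjamini-Hochberg adjustment and 47 had an unadjusted p under 0.05. Over all tested genes outside the 10, r with the clock output level described below was 0.70 at the 95th percentile and -0.70 at the 5th. Dbp went opposite to Tipin (r = -0.95, rho = -0.90, permutation p = 0.00033, adjusted p = 0.0206), and r was -0.93 without the 2 tumours farthest from the median of Dbp. By rho this pair did not pass (permutation test, adjusted p = 0.0535). Dbp went with Noct (r = 0.92, rho = 0.92, permutation p = 0.0003, adjusted p = 0.0206), and r was 0.88 without the 2 farthest tumours. Nr1d1 went opposite to Gsk3b, a kinase that acts on REV-ERB alpha protein (r = -0.88, rho = -0.96, permutation p = 7e-05, adjusted p = 0.0175, r = -0.76 without the 2 farthest tumours). Nr1d1 went with Alas1 (r = 0.88, rho = 0.92, permutation p = 0.00017, adjusted p = 0.0206, r = 0.83 without the 2 farthest tumours). The tumours form sets by Eif2s3y, so the pairs were tested again with Eif2s3y taken out, over all 1728 orders of the tumours within the 4 sets. The smallest p these orders can give is 0.000579, which is too large for a single pair to pass adjustment over 250 by itself, so the 0 of 250 that passed says little. An unadjusted exact p under 0.05 was found for 12 of the 250 pairs, about as many as chance gives in 250 tests. The 4 pairs above stood at r = -0.74, 0.46, -0.65 and 0.64 (exact permutation p = 0.0914, 0.139, 0.0475 and 0.0081). Within the 7 tumours without Eif2s3y they stood at -0.82, 0.72, -0.82 and 0.52. Of the other pairs that had passed, Nr1d1 with Tipin stood there at 0.05 and Dbp with Ppp1r3c at 0.31. Nr1d2 with Tipin stood at -0.64, Dbp with Alas1 at 0.64 and Nr1d2 with Hdac3 at 0.67.

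Per1 and Ciart were also set beside lists of genes with other inducers of Per1. As background, Per1 is switched on by glucocorticoids, by cAMP and by growth factors. Of 15 glucocorticoid-induced genes 12 were tested, and 0 rose and 0 fell, with 9 positive and 3 negative differences and a median of +0.16. Tsc22d3 (GILZ) stood at +0.42 (limma adjusted p = 0.350), Mt1, a metallothionein, at +0.18 and Pdk4, a kinase that holds back pyruvate use, at -1.16 ± 0.33 (standard error, limma adjusted p = 0.141). Of 11 tested immediate early genes 0 rose and 1 fell, and 8 differences were negative. The 1 was Arc, at -0.61 (limma adjusted p = 0.0392), a call that held without KHR-NICD tumour 1 or KHR tumour 1 and was lost when any other tumour was left out, at adjusted p up to 0.114. Egr1 stood at -0.53 and Junb at -0.36, where all 6 KHR-NICD tumours lay below the KHR tumours, as for 0.855% of all genes. Of 9 tested hypoxia genes 0 rose and 0 fell, with 2 positive and 7 negative differences and a median of -0.11. Ndrg1 stood at -0.85 (limma adjusted p = 0.0902), Slc2a1 at -0.44 with no overlap between the groups, and Pgk1, detected in 5 KHR-NICD and 1 KHR tumour, at +0.48. With Eif2s3y in the fit Ndrg1 fell and Pgk1 rose (limma adjusted p = 0.0358 and 0.0346), where 2.57% of all genes were called. With median centring Ndrg1 and Slc2a1 fell (limma adjusted p = 0.0440 and 0.0490).

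Genes were also sought by correlation with the mean standardized level of Per1, Per2, Per3, Nr1d1, Nr1d2, Dbp, Tef and Ciart, with tumour type taken out. This mean is called the output level here, though it holds repressors of the clock as well. Its parts did not all vary together, since Per1 or Per2 had a median r of -0.12 with the 6 genes that went up and down together. The output level was highest in KHR-NICD tumour 5, at 1.26, and lowest in KHR-NICD tumour 4, at -1.16. The 8 most alike of the tested genes were Elmo3, Dnd1, Aox4, Snx11, Gdpd2, Nlrx1, Rbm4b and Vamp2, with r from 0.92 to 0.90 over 12 tumours. The 4 most opposite were Mtap, Cmtm7, Emp3 and Stard13, with r from -0.96 to -0.92. In all 116 genes had r of at least 0.8 and 101 had r of -0.8 or lower, so many genes lie near this pattern. With Eif2s3y taken out, the 12 named genes kept r of 0.71 to 0.80 and of -0.95 to -0.82.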

How the data were processed

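Total RNA of 12 tumours was hybridised to Illumina MouseRef-8 v2 arrays. GenomeStudio and Partek were used, per the submitters' processing notes, which give neither version nor role. No source used here describes further upstream steps. Per the file headers, the authors' first table holds the raw mean signal intensity of each probe with its detection p-value and bead count. Their second table holds processed intensity and served as an alternative, on a log2 scale.

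The raw signals went through neqc (limma 3.58.1, R 4.3.3, offset 16), which subtracts background and quantile-normalizes to log2 values. Probes detected at p under 0.05 on at least 6 arrays were kept, and the probe with the highest mean stood for its gene, which gave 8420 genes. The fit used lmFit and eBayes with no block, and Benjamini-Hochberg adjustment over all genes at 0.05. Fits and correlations with the Eif2s3y term or the muscle level, other than Eif2s3y as a covariate of the tumour type comparison, were added after seeing the data. Same-numbered tumours were not paired, since 2 of 6 number pairs had a correlation of deviations over 0.1 (-0.22 to 0.45).

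The 10 genes and all lists were chosen with earlier results of these data known. Named genes are the 10, the genes of the clock lists past the threshold or else the 6 with the smallest p, up to 3 of each other list by p, and the 8 most alike and 4 most opposite genes without predicted ones. Precision is limited by the number of arrays, and beads per probe averaged 33.0 to 37.4 per array. In 10 simulations of this comparison with 200 of 8420 genes changed, the fit recovered 43% of genes changed by 0.5, 78.6% at 0.75, 92.2% at 1 and 96.2% at 1.5, with 4.87% false calls. With 200 changed genes the adjustment lets larger p-values pass than with the 17 genes called in the tumours. These shares are therefore likely too high for the tumours themselves. Alternatives covered background correction, normalization, filters, probes, variance models, covariates, the replicate block and leaving out each tumour.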

Additional observations from a re-analysis of the deposited data

Results flagged for a closer look

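Within groups of 6 tumours, 82 combinations of a clock probe or named gene with a tumour type were examined for a single tumour far from the rest, and chance flags about 1 in 20 such groups. There were 2. Nr1d1 stood lowest in KHR-NICD tumour 4, at 7.774, a tumour with Eif2s3y, while the other 5 KHR-NICD tumours lay at 8.22 or higher. Pgk1 stood highest in KHR-NICD tumour 1, at 6.032. Of 25 interactions of tumour type and Eif2s3y examined among these genes, 0 passed.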

How the results depend on the processing

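The count of all genes called between the tumour types, 17, became 54 with median centring, 28 without background correction, 125 with array weights, 31 with limma-trend, 8 with every kept probe tested, 216 with Eif2s3y and 105 with the muscle level in the fit. It was 1 in the 7 tumours without Eif2s3y, 0 in the 5 with it (limma, 2144 at an unadjusted p under 0.05) and 0 to 23 when each tumour was left out. Median centring gave 5 higher and 49 lower and moved the median of all genes to -0.08. With the replicate block the count was 1, and 1 of the 12 tumours correlated best with its own number. The labels do not say whether same-numbered samples share anything beyond the number. The count of the 10 clock transcripts called, 0, became 1, Ciart, with array weights, with Eif2s3y and with the muscle level, and 0 to 1 when each tumour was left out, Ciart without KHR tumour 1. Nothing is read from these counts either, since the genes were chosen with the differences between the tumour types known. Other clock genes called, 0, became 2 with Eif2s3y and stayed at 0 to 0 when each tumour was left out. The 17 clock pairs with r of at least 0.5 became 5 with Eif2s3y taken out and 13 to 18 when each tumour was left out. The 5 clock transcripts lower with Eif2s3y became 0 with the muscle level, where the calls over all genes went from 1566 to 2. They became 3 to 6 when each tumour was left out. Of the 12 genes nearest to or most opposite the output level, 2 stayed under median centring, 1 under Spearman and 2 with Eif2s3y taken out. Rora reversed, at -0.043 in the 5 tumours with Eif2s3y. Ciart was +0.47 without background correction, its smallest value among 26 alternatives, all positive, as were those of Per1, Dbp, Tef and Bhlhe40. Per2, Per3, Nr1d1 and Nr1d2 changed sign in some. The causes were not tested. The headers name no chip, so chip as a block was not run. Dim transcripts such as Per3 and Arntl lie near background, which limits what their differences can show.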
